A study of Mus musculus with 6 samples.

Results

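Interferon-stimulated genes are transcribed when cells sense interferon, and 35 of them were examined by symbol among the 46078 genes listed for each library of mouse ovary RNA. Each library was made from ovary of C57BL/6 mice, 8 to 9 weeks old. The CTX group (3 libraries) was treated with cyclophosphamide, an alkylating drug used in chemotherapy that is toxic to the ovary, and the control group (3 libraries) is labelled only as control. The labels do not state the dose, the route, the interval before the ovaries were taken or the stage of the cycle, nor whether a library holds 1 animal or a pool. P-values therefore measure only the spread between these libraries, which may be technical.

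Type I interferons bind the receptor made of IFNAR1 and IFNAR2, whose JAK1 and TYK2 kinases act on STAT2. A complex that holds STAT2 and IRF9 binds the interferon-stimulated response element (ISRE), while the response to interferon gamma uses the gamma-activated site (GAS). The genes switched on this way block viral entry, translation and replication, and some, such as the guanylate-binding proteins, also act against intracellular bacteria and parasites. In tissues free of infection many are held at a low, continuous level by small amounts of interferon.

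All 35 members were found in all 6 libraries, and 33 reached 1 RPKM (reads scaled to gene length and library depth) in at least 3 libraries and were tested. Mx1 and Oas3 fell below that filter. The scale of the values corresponds to about 17050000 to 22150000 reads in CTX and 15800000 to 16800000 reads in control. The libraries divided by ovarian cell content in another way than by treatment. Summed over 8 luteal markers, RPKM was 9668.2, 3139.5 and 3009.6 in CTX 1, 2 and 3, against 7550.8, 8149.9 and 4090.9 in controls 1, 2 and 3. Summed over 8 oocyte markers it was 95.8, 361.3 and 350.1 in CTX 1, 2 and 3, against 154.6, 131.4 and 311.4 in controls 1, 2 and 3. CTX 1 thus lay with controls 1 and 2 and apart from the other CTX libraries. The sum over 8 granulosa markers, given further on, divided the libraries in the same way, though Inhbb and Foxl2 taken singly did not.

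Motifs known to carry the interferon response were looked up in the promoters of these genes and are shown first. RefSeq promoters on GRCm38.p6 (250 bases before to 50 after the transcript start) were matched for 25 of the 35 members. The ISRE core was searched as GAAA, any 2 bases, GAAA, and the GAS as TTCNNNGAA, each on both strands, and the motifs may overlap each other. The ISRE core was present in 15 of 25 members (60.0%), against 1079 of 27025 genes (4.0%) in the whole promoter table. The GAS was present in 7 of 25 members (28.0%), against 2582 of 27025 genes (9.6%). Both occurred in 4 members (16%), Oas1a, Eif2ak2, Bst2 and Igtp, against 166 genes (0.6%) in the table. Neither motif was found in the promoters of Trim25, Oasl1, Oasl2, Irf7, Irf9, Ifi44 and Xaf1. These are matches of letters, described without a test.

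Windows of 120 bases are given for some members that hold an ISRE core, 5′ to 3′ on the strand of the gene. Matches before the start are in capitals, and members without a core are not shown. In Isg15 the cores run into each other as 3 overlapping copies, in Ifit1 and Ifit3 they stand apart as 2, in Rsad2 and Gbp2 there is 1, and in Bst2 and Igtp a GAS precedes the ISRE cores, overlapping the first of them in Bst2.
Ifit1 (chr19:34640704-34640823, + strand): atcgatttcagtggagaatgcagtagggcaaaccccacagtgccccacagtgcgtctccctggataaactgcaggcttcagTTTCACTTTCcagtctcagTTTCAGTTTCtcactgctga
Ifit3 (chr19:34583307-34583426, + strand): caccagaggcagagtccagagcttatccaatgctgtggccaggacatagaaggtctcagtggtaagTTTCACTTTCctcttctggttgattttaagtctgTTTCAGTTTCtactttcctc
Isg15 (chr4:156200865-156200984, - strand): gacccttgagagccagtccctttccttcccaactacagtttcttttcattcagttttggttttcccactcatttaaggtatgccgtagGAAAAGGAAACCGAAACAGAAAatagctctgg
Rsad2 (chr12:26456553-26456672, - strand): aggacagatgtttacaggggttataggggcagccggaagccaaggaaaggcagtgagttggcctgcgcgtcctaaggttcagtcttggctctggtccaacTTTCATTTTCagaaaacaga
Gbp2 (chr3:142620504-142620623, + strand): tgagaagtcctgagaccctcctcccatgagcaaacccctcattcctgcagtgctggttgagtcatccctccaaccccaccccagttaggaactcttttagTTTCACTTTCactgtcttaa
Bst2 (chr8:71537577-71537696, - strand): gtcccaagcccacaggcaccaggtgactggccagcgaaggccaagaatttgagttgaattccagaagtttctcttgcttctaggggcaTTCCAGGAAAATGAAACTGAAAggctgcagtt
Igtp (chr11:58199422-58199541, + strand): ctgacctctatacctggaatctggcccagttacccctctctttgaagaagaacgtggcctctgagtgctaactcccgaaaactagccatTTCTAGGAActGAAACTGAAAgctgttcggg

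**Figure D1:**
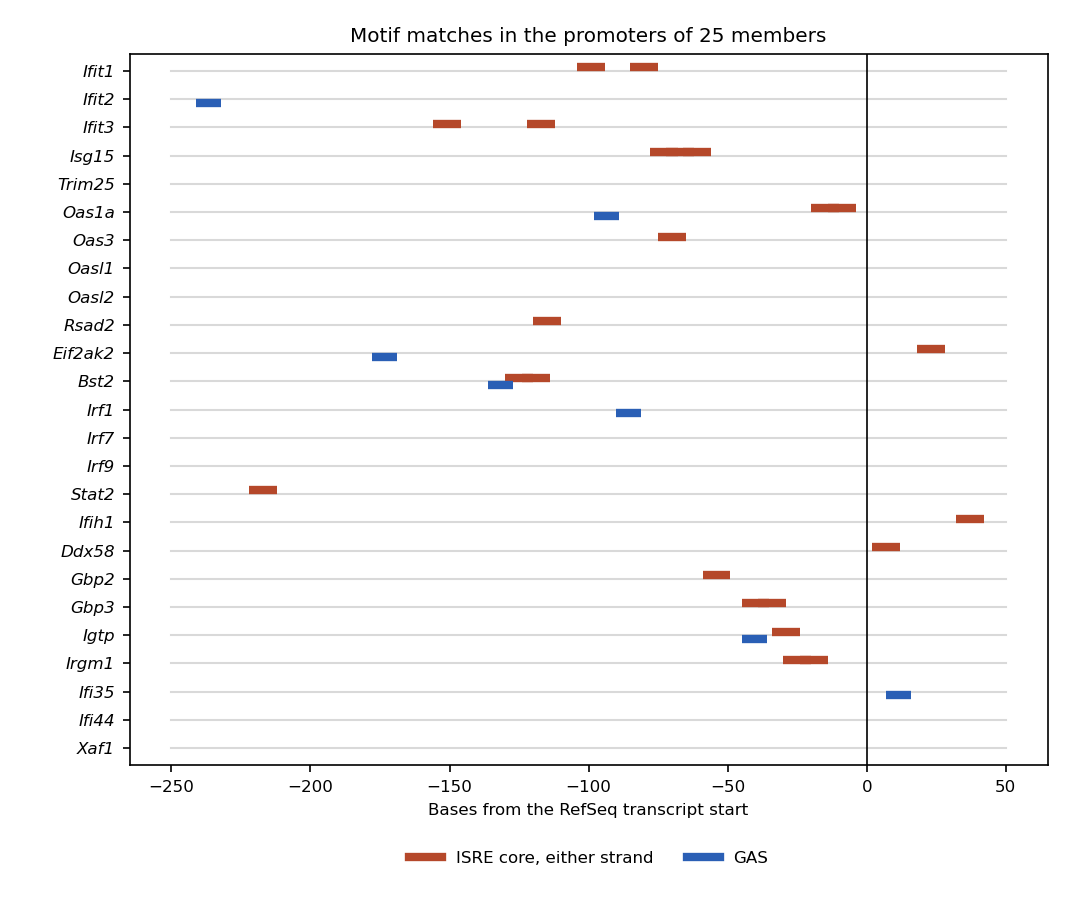
Matches of the ISRE core (red) and GAS (blue) in the promoters of 25 members, by distance in bases from the RefSeq transcript start (0). The ISRE cores lie before the start except in Eif2ak2, Ifih1 and Ddx58, where they lie after it.

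The main comparison asked whether interferon-stimulated genes differed between cyclophosphamide-treated and control ovaries. No member passed the test: limma called 0 of 33 members higher and 0 lower in CTX, beside 0 of all 14535 tested genes (0%) in either direction, and the adjusted p was 1.00 for every member. At an unadjusted p under 0.05, 0 members were higher and 1 was lower (Gbp2), beside 168 higher and 333 lower genes of all those tested. The median log2 fold change (CTX minus control, on log2(RPKM + 1)) was −0.02 over the members, with quartiles of −0.10 and 0.10. Over all tested genes it was −0.01, with quartiles of −0.13 and 0.12. Fitted changes were positive in 15 members and negative in 18. The groups did not overlap in 3 members. Usp18 was the one with all CTX libraries above all controls (3.03% of members, beside 3.32% of all tested genes), and Irf9 and Gbp2 had all CTX libraries below all controls (6.06%, beside 5.50%). Because these are whole-ovary samples, fewer cells of a type and less RNA per cell cannot be told apart.

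**Figure D2:**
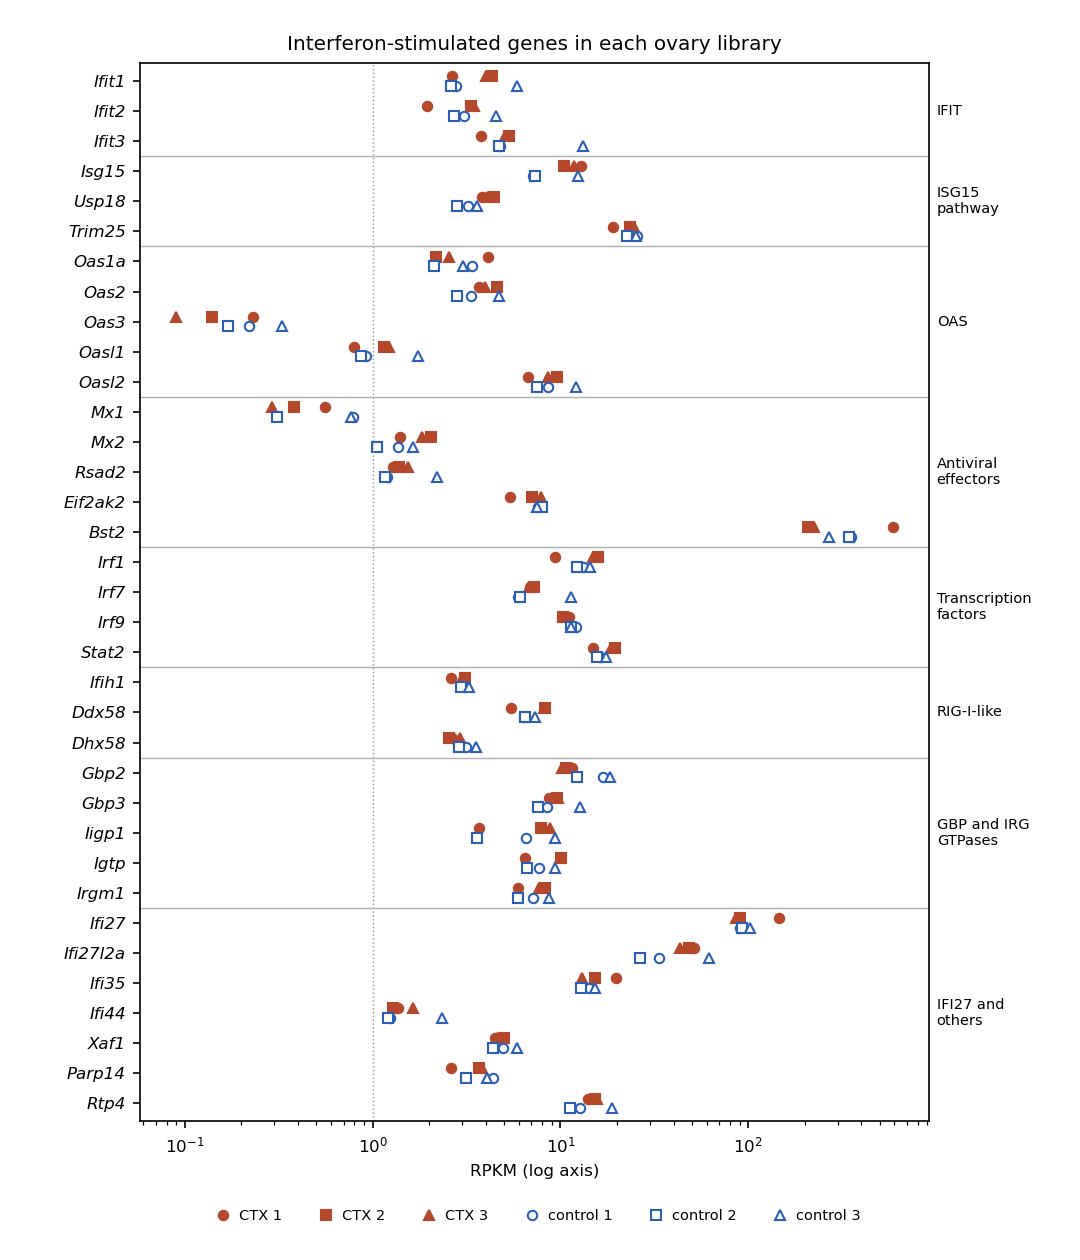
RPKM (log axis) of each of the 35 members in each library, with CTX as filled red symbols above control as open blue symbols, grouped by role. The dotted line marks 1 RPKM, and control 3 (open triangles) lies to the right of both other controls in most rows.

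**Figure D3:**
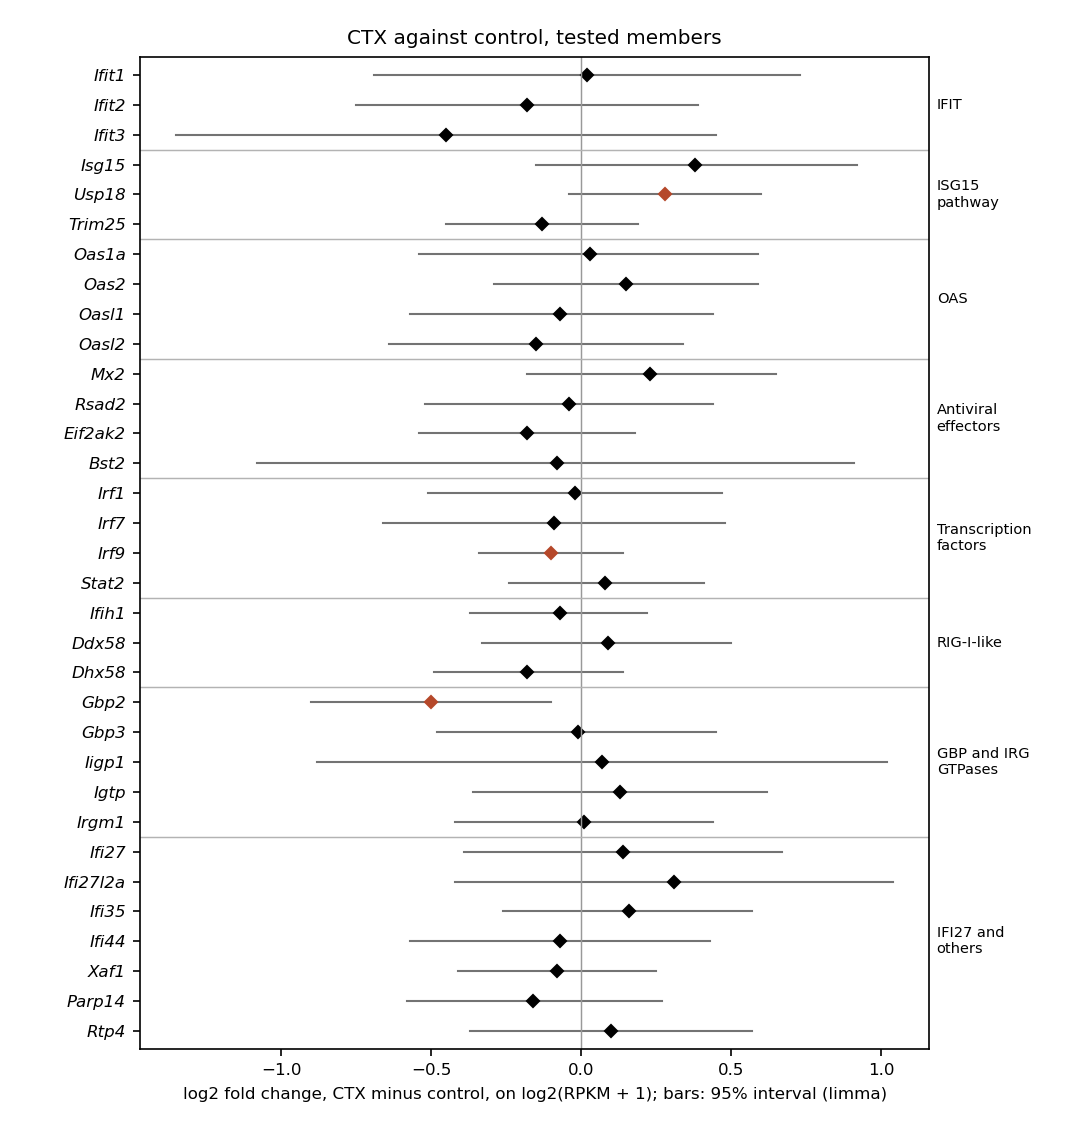
Fitted log2 fold changes of the 33 tested members, CTX minus control, with 95% intervals from limma. Diamonds in red mark Usp18, Irf9 and Gbp2, whose groups do not overlap, and among all members the interval of Gbp2 alone excludes 0 before adjustment.

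Gbp2 encodes an interferon-inducible guanylate-binding protein that acts on vacuoles holding pathogens (chromosome 3, 142620602 to 142638008 in mm10, protein-coding, + strand). Its level was 11.46, 10.76 and 10.16 RPKM in CTX 1, 2 and 3, against 16.95, 12.25 and 18.44 RPKM in controls 1, 2 and 3. The CTX libraries were close together, and the lowest control, control 2, stood nearer to them than to controls 1 and 3. The means were 10.8 ± 0.651 in CTX and 15.9 ± 3.23 in control (SD, n = 3 each), with a fitted log2 fold change of −0.50 ± 0.17 (SE), an interval of −0.90 to −0.10 and a limma adjusted p of 1.00. With 1 library left out at a time the change lay between −0.66 and −0.39, and the smallest adjusted p was 0.272.

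Gbp3, its neighbour on chromosome 3, had 8.68, 9.57 and 9.75 RPKM in CTX 1, 2 and 3, against 8.48, 7.62 and 12.77 RPKM in controls 1, 2 and 3. Here the control libraries enclosed all CTX libraries, since control 3 was the highest and control 2 the lowest of the 6. The immunity-related GTPases, which attack membranes of pathogen vacuoles, varied within both groups. Iigp1 (chromosome 18, 60376027 to 60392634) had 3.69, 7.92 and 8.85 RPKM in CTX 1, 2 and 3, against 6.52, 3.59 and 9.39 RPKM in controls 1, 2 and 3. CTX 1 and control 2 were low and the other libraries higher, with a highest to lowest ratio of 2.62 and a fitted change of 0.07 ± 0.39. Igtp and Irgm1 had smaller ranges, 6.46 to 10.08 and 5.93 to 8.26 RPKM in CTX, against 6.67 to 9.34 and 5.96 to 8.69 RPKM in control. Of Igtp, 11.8% of transcript 50-mers (stretches of 50 bases) also occur in Irgm2, so its reads could be shared with that gene.

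ISG15 is a ubiquitin-like protein that is joined to other proteins during the interferon response, USP18 removes it and also restrains the receptor, and TRIM25 is a ubiquitin ligase that activates the RNA sensor RIG-I. Isg15 (chromosome 4, 156199424 to 156200818, − strand) had 12.91, 10.39 and 11.81 RPKM in CTX 1, 2 and 3, against 7.14, 7.33 and 12.45 RPKM in controls 1, 2 and 3. Controls 1 and 2 were the low libraries, and control 3 lay within the CTX range. The means were 11.7 ± 1.26 in CTX and 8.97 ± 3.01 in control (SD, n = 3 each), and the log2 fold change of 0.38 ± 0.22 (SE) was the largest positive one among the members, with an interval of −0.15 to 0.92 and a limma adjusted p of 1.00. Leaving out control 3 raised it to 0.62 (limma adjusted p = 0.821).

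Usp18 (chromosome 6, 121245906 to 121270917) had 3.80, 4.44 and 4.08 RPKM in CTX 1, 2 and 3, against 3.23, 2.81 and 3.60 RPKM in controls 1, 2 and 3. The groups did not overlap, but the gap between control 3 and CTX 1 was small. The log2 fold change was 0.28 ± 0.13 (SE; means 4.11 ± 0.321 in CTX and 3.21 ± 0.395 in control, SD, n = 3 each), with an interval of −0.04 to 0.60 and a limma adjusted p of 1.00. Of its 2790 exonic bases, 124 are shared with the long noncoding gene Gm44148 on the opposite strand. Trim25 had 18.99, 23.45 and 24.75 RPKM in CTX 1, 2 and 3, against 25.60, 22.74 and 25.18 RPKM in controls 1, 2 and 3, so that CTX 1 alone lay outside the range of the other libraries.

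The IFIT proteins bind foreign RNA and block its translation, and their genes lie side by side on chromosome 19. All 3 had their highest value in control 3. Ifit3 (34583531 to 34588731) had 3.76, 5.32 and 5.08 RPKM in CTX 1, 2 and 3, against 4.75, 4.73 and 13.17 RPKM in controls 1, 2 and 3. Control 3 was 2.78 times the mean of the other controls, and the remaining 5 libraries were close together. The fitted change of −0.45 ± 0.37 (SE) came to −0.02 without control 3.

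Ifit1 (34640871 to 34650009) had 2.64, 4.31 and 4.03 RPKM in CTX 1, 2 and 3, against 2.77, 2.61 and 5.87 RPKM in controls 1, 2 and 3. Ifit2 had 1.95, 3.36 and 3.47 RPKM in CTX 1, 2 and 3, against 3.05, 2.70 and 4.53 RPKM in controls 1, 2 and 3. In both genes CTX 1 was low beside CTX 2 and 3, and control 3 was high beside controls 1 and 2. Ifit3 has a close copy, and 51.2% of its 50-mers occur in Ifit3b. That gene had 0.83, 1.57 and 1.47 RPKM in CTX and 1.29, 1.39 and 3.33 RPKM in control.

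The oligoadenylate synthetases make a messenger that activates RNase L against viral RNA, and the OAS-like genes encode related proteins. All lie on chromosome 5. Oasl2 (114896936 to 114912234) had 6.73, 9.53 and 8.61 RPKM in CTX 1, 2 and 3, against 8.61, 7.50 and 12.06 RPKM in controls 1, 2 and 3. Oas2 had 3.68, 4.58 and 3.96 RPKM in CTX 1, 2 and 3, against 3.33, 2.83 and 4.72 RPKM in controls 1, 2 and 3. In both, control 3 was the highest library, and the CTX values lay inside the control range except CTX 1 in Oasl2. Oas1a averaged 2.95 ± 1.03 RPKM in CTX and 2.84 ± 0.652 in control (SD, n = 3 each), and 57.6% of its 50-mers occur in other genes, mostly Oas1g. Oasl1 ranged from 0.80 to 1.22 RPKM in CTX and from 0.87 to 1.74 in control, with the highest value again in control 3. Oas3 stood at 0.23, 0.14 and 0.09 RPKM in CTX and 0.22, 0.17 and 0.33 RPKM in control, about 11 to 39 reads per library, and was too low to test.

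Among the other antiviral effectors, Bst2, which encodes tetherin, the membrane protein that holds budding virus at the cell surface, was the most abundant member by far (chromosome 8, 71534255 to 71537456, − strand). It had 589.72, 208.95 and 223.05 RPKM in CTX 1, 2 and 3, against 354.30, 342.59 and 269.77 RPKM in controls 1, 2 and 3. CTX 1 was the highest library and CTX 2 and 3 the lowest, and controls 1 and 2 stood above control 3. The libraries with the 3 highest Bst2 values were also those with the 3 highest summed luteal markers given above. Whether luteal content accounts for the Bst2 values was not tested. The fitted change was −0.08 ± 0.41 (SE), with an interval of −1.08 to 0.91, and without CTX 1 it was −0.57 (limma adjusted p = 0.23).

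Eif2ak2, encoding the kinase PKR that stops translation when it binds double-stranded RNA, had 5.38, 7.03 and 7.84 RPKM in CTX 1, 2 and 3, against 7.6, 8.0 and 7.51 RPKM in controls 1, 2 and 3. The controls were close together and CTX 1 was the low library. Rsad2, encoding viperin, which makes a chain-terminating nucleotide, had its highest value in control 3 (2.20 RPKM, against 1.16 to 1.55 in the other libraries). Mx1 and Mx2 encode dynamin-like GTPases, and inbred strains such as C57BL/6 are known to carry defective Mx alleles, with Mx2 annotated as a polymorphic pseudogene in GENCODE M21. Mx1 was at 0.56, 0.38 and 0.29 RPKM in CTX and 0.79, 0.31 and 0.77 in control, about 19 to 49 reads per library. Mx2 had 1.40 to 2.05 RPKM in CTX and 1.05 to 1.65 in control, with a fitted change of 0.23 ± 0.17 (SE).

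Among the transcription factors of the pathway, Irf9 varied least and Irf7 most. Stat2 had 14.88, 19.51 and 18.56 RPKM in CTX 1, 2 and 3, against 16.24, 15.72 and 17.55 RPKM in controls 1, 2 and 3, so that the CTX libraries enclosed the controls. Irf1, a factor induced most by interferon gamma, had 9.36, 15.87 and 14.84 RPKM in CTX 1, 2 and 3, against 13.21, 12.30 and 14.30 RPKM in controls 1, 2 and 3. CTX 1 was again the low library in both genes.

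Irf9 (chromosome 14, 55603571 to 55610030), which binds the ISRE in a complex with STAT2, had 11.06, 10.29 and 10.84 RPKM in CTX 1, 2 and 3, against 12.13, 11.32 and 11.33 RPKM in controls 1, 2 and 3. The groups did not overlap, and the whole range was narrow, with a highest to lowest ratio of 1.18, the smallest among the members. Its log2 fold change was −0.10 ± 0.10 (SE), with an interval of −0.34 to 0.14 and a limma adjusted p of 1.00, and the groups overlapped after trimmed-mean scaling, quantile normalization or removal of the length trend. Irf7, the factor that amplifies interferon production, was 6.88, 7.21 and 6.81 RPKM in CTX, against 5.95, 6.09 and 11.34 RPKM in controls 1, 2 and 3. Control 3 alone stood apart, at 1.88 times the mean of the other controls, and the remaining libraries lay within a narrow band.

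The RIG-I-like receptors sense viral RNA in the cytoplasm. Ddx58, which encodes RIG-I itself, had 5.48, 8.27 and 8.18 RPKM in CTX 1, 2 and 3, against 6.41, 6.46 and 7.34 RPKM in controls 1, 2 and 3. Ifih1, encoding MDA5, had 2.62, 3.10 and 3.0 RPKM in CTX 1, 2 and 3, against 3.11, 2.95 and 3.25 RPKM in controls 1, 2 and 3. CTX 1 was the lowest library in both, CTX 2 and 3 exceeded the controls in Ddx58, and in Ifih1 control 3 was the highest. Dhx58, encoding the regulator LGP2, ranged from 2.54 to 2.91 RPKM in CTX and from 2.87 to 3.53 in control, with a fitted change of −0.18 ± 0.13 (SE).

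IFI27 and IFI27L2A are small hydrophobic proteins of organelle and nuclear membranes, and their genes adjoin each other on chromosome 12. Ifi27 (103434211 to 103440239) had 146.18, 90.19 and 86.36 RPKM in CTX 1, 2 and 3, against 90.42, 92.39 and 101.57 RPKM in controls 1, 2 and 3. CTX 1 was the sole library far from the rest. Its fitted change of 0.14 ± 0.22 turned to −0.10 without CTX 1. Ifi27l2a (103442167 to 103443680) had 51.44, 48.17 and 43.15 RPKM in CTX 1, 2 and 3, against 33.37, 26.54 and 61.74 RPKM in controls 1, 2 and 3. The controls spread from the lowest to the highest of all 6 libraries, with CTX between. The means were 47.6 ± 4.18 in CTX and 40.6 ± 18.7 in control (SD, n = 3 each), and the fitted change of 0.31 ± 0.30 came to 0.66 without control 3 (limma adjusted p = 0.821).

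The other induced genes, Ifi35, Ifi44, Xaf1, Parp14 and Rtp4, had fitted changes between −0.16 and 0.16. Ifi35, which binds other interferon-induced proteins, had 12.96 to 19.85 RPKM in CTX and 12.81 to 15.28 in control, and shares 290 of its 1727 exonic bases with Gm11626 on the opposite strand. Xaf1, which opposes the apoptosis inhibitor XIAP, had 4.48 to 5.03 RPKM in CTX and 4.37 to 5.88 in control. Parp14, an ADP-ribosyltransferase, had 2.63 to 3.83 RPKM in CTX and 3.13 to 4.40 in control. Rtp4, which encodes a receptor transporter protein, had 14.09 to 15.69 RPKM in CTX and 11.22 to 18.82 in control. It shares 296 of its 2131 exonic bases with Gm45338. Ifi44 had 1.28 to 1.64 RPKM in CTX and 1.2 to 2.33 in control. In each of these 5 genes the ranges of the groups overlapped.

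The control libraries differed among themselves in the members. Control 3 held the highest value in 18 of 33 tested members (54.5%), where it held the highest value in 20.1% of all tested genes. Control 2 held the lowest in 13 members (39.4%), where it was lowest in 11.1% of all tested genes. CTX 1 also held the lowest in 13 members, where it was lowest in 42.4% of all tested genes. The median deviation of the members from their mean over 6 libraries was −0.11, 0.04 and 0.08 log2 units in CTX 1, 2 and 3, against −0.06, −0.18 and 0.23 in controls 1, 2 and 3. For all tested genes the same medians were −0.11, 0.04 and 0.04 in CTX and −0.01, −0.03 and 0.05 in control. Of 33 members, 7, 22 and 21 lay above their mean in CTX 1, 2 and 3, against 12, 3 and 31 in controls 1, 2 and 3. The same counts over all tested genes were not computed. This division of the controls was noticed in the values and was not tested.

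Of 15 members whose promoter held an ISRE core, 8 were highest in control 3, and of 10 whose promoter held none, 6 were. The 15 and the 8 include Oas3, which was below the filter and not tested. Leaving out control 3 moved the median change of the members to 0.13, and all CTX libraries then lay above both remaining controls in 10 members (Rsad2, Mx2, Irf7, Ifi44, Gbp3, Usp18, Oas2, Rtp4, Isg15 and Ifi27l2a). With control 3 left out the same held for 11.9% of all tested genes, and limma still called 0 members, with a smallest adjusted p of 0.821. Without control 2, all CTX libraries lay below both remaining controls in 6 members (Trim25, Irf9, Dhx58, Ifih1, Gbp2 and Parp14), beside 8.90% of all tested genes.

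**Figure D4:**
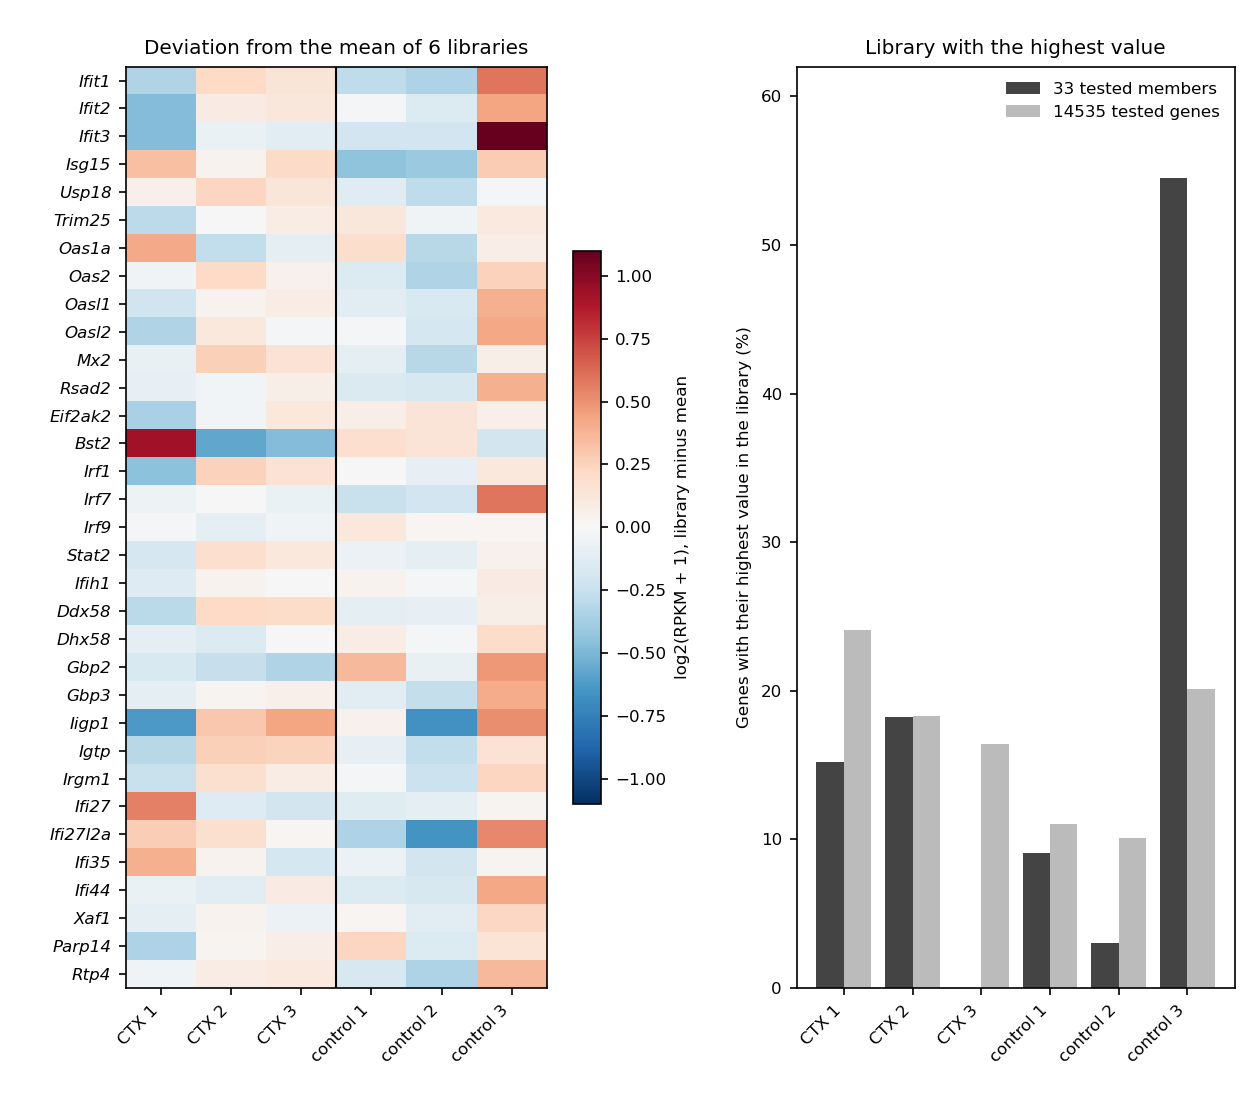
Left, deviation of each tested member from its mean over the 6 libraries in log2(RPKM + 1), red above and blue below, with CTX left of control. Right, the share of 33 tested members (dark) and of 14535 tested genes (grey) that are highest in each library. Control 3 is highest in 54.5% of the members and 20.1% of all tested genes.

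Summed granulosa and oocyte markers were high in control 3 as well. Of all 6 libraries, control 3 had the highest summed granulosa markers. The sums were 939.8, 3025.4 and 3003.6 in CTX 1, 2 and 3, against 1518.7, 1398 and 3345.1 in controls 1, 2 and 3. Taken singly, only Inha and Inhbb were highest in control 3. Amh, Fshr, Foxl2, Cyp19a1, Nr5a2 and Gja1 were higher in CTX 2 or CTX 3. Among the controls, control 3 also had the highest summed oocyte markers, 311.4, where controls 1 and 2 had 154.6 and 131.4. For the summed immune cell markers control 3 was not the highest control. Summed over 10 macrophage markers, RPKM was 522.3, 346.8 and 344.9 in CTX 1, 2 and 3, against 537.4, 411.4 and 366.7 in controls 1, 2 and 3. Lyz2 was the largest part of that sum (317.89, 228.2 and 177.76 in controls 1, 2 and 3). Of these markers Adgre1 alone was higher in control 3 (7.29) than in controls 1 and 2 (6.81 and 4.06). Summed over 10 lymphocyte markers, RPKM was 6.61, 4.93 and 5.09 in CTX, against 7.31, 4.96 and 5.22 in control, and 7 of those markers were under 1 RPKM in every library. Among the controls, Cd3e, Cd79a, Ms4a1 and Trac were highest in control 3, and the other lymphocyte markers were not. The plasmacytoid dendritic cell markers, a type known for its interferon output, summed to 7.64, 7.12 and 7.95 in CTX, against 10.7, 9.70 and 9.46 in control, most of it from Tcf4, which other cells express too. Tcf4 was at 8.66, 8.27 and 8.72 RPKM in controls 1, 2 and 3. The part of any of these cell types in the members' levels was not tested.

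CTX 1 stood apart in another way. It was the highest library in 5 of 7 tested members with under 2000 exonic bases (Isg15, Oas1a, Bst2, Ifi27 and Ifi35), with a median deviation of 0.39, and in 0 of 26 longer members, with a median deviation of −0.18. Over all tested genes it was the highest in 39.1% of those under 2000 bases and in 19.8% of longer ones. With each library's trend with exon length removed, the median change of the members was −0.02, the same as without this step, and limma called 0 members. Without CTX 1, Bst2 and Ifi27 joined Gbp2 and Irf9 among members with all CTX libraries below all controls, and Irf1, Mx2, Stat2, Ddx58 and Igtp joined Usp18 among those above. Those 4 and 6 members stand beside 17.0% and 22.8% of all tested genes in that setting.

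Few or no reads were listed for the 10 interferon ligand genes looked up, which include only some of the Ifna genes. Ifna1, Ifna2, Ifna4, Ifnb1, Ifne and Ifnl2 were listed at 0 in all libraries, which at about 3 reads allows up to 0.131 to 0.338 RPKM by counting error, depending on gene and library. A listed 0 need not mean that a transcript is absent, since the handling of reads with several matches is unknown. Trex1 and Gbp6, for example, are each listed under a pair of identifiers, of which one is at 0 in all libraries and the other is not. Ifng, the type II ligand of T and NK cells, was at 0.05, 0 and 0 RPKM in CTX 1, 2 and 3, against 0, 0.10 and 0.15 RPKM in controls 1, 2 and 3. Ifnl3, the most abundant of the ligands, was at 1.33, 0 and 0 RPKM in CTX 1, 2 and 3, against 0.11, 0.54 and 0 RPKM in controls 1, 2 and 3. Its value in CTX 1 rested on about 14 reads, and 38.8% of its 50-mers occur in Ifnl2. None of the 10 ligands passed the filter.

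Of 5 receptor genes tested, 0 were called in either direction by limma. Ifnlr1, which encodes the specific chain of the interferon lambda receptor, stayed below the filter, at 0.42, 0.69 and 0.72 RPKM in CTX 1, 2 and 3, against 0.44, 0.39 and 0.51 RPKM in controls 1, 2 and 3. Ifnar1 and Ifnar2, named here after their values were seen, had all CTX libraries below all controls. They are 2 of the 5 receptor genes tested, and the same held for 5.50% of all tested genes. Ifnar2 had 20.19, 17.73 and 17.55 RPKM in CTX 1, 2 and 3, against 22.36, 20.63 and 22.36 RPKM in controls 1, 2 and 3 (log2 fold change −0.23 ± 0.11, limma adjusted p of 1.00). Ifnar1 had 14.31, 18.89 and 18.61 RPKM in CTX, against 19.54, 20.81 and 19.21 RPKM in control (log2 fold change −0.20 ± 0.14). The differences were small, and CTX 1 was well below the other libraries for Ifnar1.

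Ifngr2, the most abundant receptor gene, averaged 26.3 ± 2.32 RPKM in CTX and 26.4 ± 3.32 in control (SD, n = 3 each). Il10rb, which serves interferon lambda, had the smallest p in the list and 20.01, 12.33 and 11.73 RPKM in CTX, against 21.37, 24.77 and 19.31 RPKM in control (limma adjusted p of 1.00). Its value in CTX 1 lay inside the control range. Among 8 signalling genes Jak1 was the most abundant, at 36.01, 71.95 and 70.36 RPKM in CTX and 56.78, 48.73 and 79.34 RPKM in control, and it divided the libraries as the oocyte markers did. Irf5 had the smallest p in that list, with 3.21 ± 0.639 RPKM in CTX and 4.0 ± 0.270 in control (SD, n = 3 each; limma adjusted p of 1.00).

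Of 76 other pathway genes tested (97 of 101 listed symbols were matched), limma called 0 higher and 0 lower. Fitted changes were positive in 31 and negative in 45, with a median of −0.07. All CTX libraries lay above all controls in 2 of them (2.63%, beside 3.32% of all tested genes) and below in 6 (7.89%, beside 5.50%). Control 3 was the highest library in 24 (31.6%, beside 20.1% of all tested genes). Among sensors and adaptors, Mavs, the mitochondrial adaptor of the RIG-I-like receptors, averaged 19.1 ± 5.31 RPKM in CTX and 18.0 ± 2.16 in control, and the kinase gene Tbk1 averaged 16.4 ± 0.623 in CTX and 18.9 ± 1.66 in control (SD, n = 3 each). In Tbk1 the groups did not overlap (log2 fold change −0.19 ± 0.11, limma adjusted p of 1.00).

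Among negative regulators Rnaseh2c, a subunit of the RNase H2 complex that clears nucleic acids able to trigger interferon, was both the most abundant and the one with the smallest p. It had 30.58, 27.64 and 27.26 RPKM in CTX 1, 2 and 3, against 21.41, 20.79 and 25.50 RPKM in controls 1, 2 and 3 (log2 fold change 0.33 ± 0.12, limma adjusted p of 1.00). The groups did not overlap. Among 43 further induced genes tested, Ifitm2, whose product blocks viral entry, averaged 257.4 ± 25.4 RPKM in CTX and 212.9 ± 22.9 in control (SD, n = 3 each). Ifi30, a lysosomal thiol reductase gene of antigen processing, had 38.59, 34.12 and 27.88 RPKM in CTX, against 27.69, 24.63 and 26.37 RPKM in control, the smallest p of that list (limma adjusted p of 1.00), with CTX 3 just above control 1.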

How the data were processed

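RNA from whole ovaries was extracted with Trizol and sequenced on Illumina TruSeq libraries, per the labels' protocols. The authors deposited 1 table of values per library. The submitters' processing notes list Bowtie 0.12.2 and mm10. The counting tool, its annotation and its use of strand or of multiply matching reads are not stated there. No header states the unit. The deposited values were read as RPKM, since for genes of at most 1000 exonic bases 97.7 to 98.0% of low values lay within 0.2 reads of a whole number at 1 step per library. That step gave the depth. For a gene of 1 kilobase, 1 RPKM stands for 15.8 to 22.2 reads. Read counts quoted are approximate, from GENCODE M21 exon lengths (98.2% of identifiers matched, GRCm38, the assembly of mm10), and cover counting error only.

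Values were transformed as log2(RPKM + 1), which understates changes of low genes. Genes with at least 1 RPKM in at least 3 libraries were fitted together in limma 3.58.1 (R 4.3.3) with a mean-variance trend, and calls used a Benjamini-Hochberg adjusted p under 0.05 over all 14535 genes, two-sided. No 2 libraries of a group were alike within sampling noise, which alone gives a median chi-square per gene of 0.455. The closest pair was CTX 2 and CTX 3 (1.49), while CTX 1 stood at 31.5 from CTX 2 and 29.1 from CTX 3. Pairs of controls ran from 2.02 to 9.52. Members and gene lists were chosen with earlier results of these data known. Values in every library were given for members whose groups do not overlap, the 2 most abundant of each role, and the 6 with the largest ratio between libraries. Of each pathway list the most abundant gene and the one with the smallest p were named, with values in every library or with mean and SD. Others named with values (among them Irf7, Rsad2, Oas3, Mx1, Ifnar1, Ifnar2, Ifnlr1 and Ifng) were chosen after their values were seen.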

Additional observations from a re-analysis of the deposited data

How the results depend on the processing

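Alternatives were 2 other pseudocounts (0.1 and 0.5), no filter on low values, a filter on mean RPKM (at least 5), trimmed-mean scaling, quantile normalization, no variance trend, removal of each library's trend with exon length, the replicate number as a block, and each library left out in turn. Under all 15 settings limma called 0 members and 0 other pathway genes. Over all genes, 0 were called except without CTX replicate 1 (2 higher and 3 lower), so with 1 library left out the counts ran from 0 to 2 higher and from 0 to 3 lower. The median change of the members, −0.02, ran from −0.12 (without control replicate 2) to 0.13 (without control replicate 3), and it was also positive after quantile normalization (0.01) and without CTX replicate 1 (0.0016). Members with all CTX libraries above all controls numbered 0 under the mean filter (3.97% of all genes tested there), 2 after quantile normalization (4.30%), 2 with the length trend removed (5.0%), and 1 to 10 with 1 library left out (4.35 to 22.8%). Members with all CTX libraries below numbered 1 after quantile normalization (5.15%) and 2 to 6 with 1 library left out (7.23 to 17.0%). Without CTX replicate 3 the counts were 2 above and 4 below, beside 6.07% and 9.16% of all genes.

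Of the 20 members chosen by the rule above, 11 kept their sign under each setting in which they were fitted, and 5 of the 20 were not fitted under the mean filter. Among the other tested members, Oas1a, Oasl1, Rsad2, Irf7, Irgm1, Ifi44, Xaf1 and Rtp4 took both signs with 1 library left out. Mx2, Dhx58, Igtp, Ifi35 and Parp14 did not. With the length trend removed, Ifit1 turned to a log2 change of −0.0037. With 1 library left out, changes ran from −0.15 to 0.32 for Ifit1, −0.29 to 0.02 for Ifit2, −0.28 to 0.03 for Oasl2, −0.57 to 0.18 for Bst2, −0.15 to 0.20 for Irf1, −0.0023 to 0.26 for Ddx58, −0.15 to 0.19 for Gbp3, −0.25 to 0.40 for Iigp1 and −0.10 to 0.28 for Ifi27. The cause was not tested. Deviations of same-numbered libraries correlated at 0.401, −0.54 and 0.598 for numbers 1, 2 and 3. Some differently numbered libraries correlated as much (0.614 for CTX 1 and control 2, 0.596 for CTX 2 and control 3). A pairing by number was thus neither shown nor excluded. With the replicate block limma called 0 members, and the members' median change was −0.02. The intervals given hold the changes that 3 libraries a group allow, before adjustment. The smallest change detectable after adjustment was not computed, and a lack of calls does not show that no member changed.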

Other observations

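Several relatives of the Oas1 gene divided the libraries as the oocyte markers did, and so did some of the 35 members, such as Ifit1 and Oasl1. These relatives were named after their values were seen. Oas1d had 2.95, 12.39 and 12.82 RPKM in CTX 1, 2 and 3, against 5.44, 5.08 and 10.96 RPKM in controls 1, 2 and 3. Oas1e, the most abundant, had 5.45, 22.43 and 22.12 RPKM in CTX, against 10.15, 8.43 and 19.87 RPKM in control. Oas1c and Oas1h had the same order of high and low libraries, with the lowest value of each in CTX 1. CTX 1 and controls 1 and 2 were low, as they were for the summed oocyte markers (95.8, 361.3 and 350.1 in CTX, against 154.6, 131.4 and 311.4 in control). These 4 genes share between 0.5 and 15.1% of their 50-mers with other genes, and limma gave each an adjusted p of 1.00.

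The genes of the feedback inhibitors SOCS1 and SOCS3, named after their values were seen, went the other way. Socs1 had 20.47, 10.78 and 8.77 RPKM in CTX 1, 2 and 3, against 25.59, 25.67 and 8.15 RPKM in controls 1, 2 and 3. Socs3 had 19.64, 12.19 and 10.18 RPKM in CTX, against 21.79, 30.86 and 8.01 RPKM in control. Both were lowest in control 3, the library in which 18 of 33 interferon-stimulated members were highest, and high where summed luteal markers were high. Whether these are connected was not tested. Of the 11 negative regulators tested, 3 were highest in control 3 (Rnaseh2b, Adar and Pias1). Samhd1, like Socs1 and Socs3, was lowest there.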
